A study of Bos taurus with 2 samples.

Results

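In this study 10 imprinted genes were examined in the RNA of bull sperm: IGF2, H19, IGF2R, MEST, PEG3, PEG10, SNRPN, NNAT, PLAGL1 and DLK1. They were found as every non-control probe whose gene name in the scanner tables was 1 of these 10, of 32429 gene names in the tables. The rule gave 44 probes on 45 spots. The data came from 2 bovine oligonucleotide arrays, 1 per fertility group, each hybridised with Cy3-labelled RNA primed with oligo-dT. The groups were spermatozoa of high-fertile and of low-fertile HF crossbred breeding bulls. The labels give no age and no treatment, and they do not state how many bulls stand behind each array. With 1 array per group there was no replicate, and no test between the groups was possible. A gene is called different here at an absolute log2 difference of at least 1, a 2-fold change. Differences are high-fertile minus low-fertile throughout.

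An imprinted gene is transcribed mainly from 1 parental copy, because DNA methylation set in the egg or in the sperm lineage marks the silent or the active copy. H19 and IGF2R are the maternally expressed genes of the set. The other 8 are expressed from the paternal copy, and many of them act on growth of the fetus and placenta. Mature sperm are largely silent in transcription, and the RNA they carry is mostly left over from spermatogenesis.

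Each probe is a 60-base oligonucleotide, and its sequence states which part of a transcript was measured. Positions are those of the array design on build HGSC Btau_3.1. The 3 H19 probes are shown whole because their signals decide whether the maternally expressed side of the set was measured at all. They lie on the plus strand, with probe 1 at chr29:51365088-51365147, probe 2 at chr29:51366487-51366546 and probe 3 at chr29:51366641-51366700.
H19 probe 1: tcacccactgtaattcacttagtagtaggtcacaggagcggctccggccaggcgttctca
H19 probe 2: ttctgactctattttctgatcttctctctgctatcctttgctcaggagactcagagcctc
H19 probe 3: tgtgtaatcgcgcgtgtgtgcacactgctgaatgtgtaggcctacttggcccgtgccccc

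The IGF2 probes are shown because they did not move together. Probes 2 and 4 (chr29:51271291-51271350 and chr29:51272922-51272981, plus strand) are printed whole. Of the overlapping probes 7, 8 and 9, 30 of the 32 bases that all 3 hold are printed, and of probes 12 (chr29:51275494-51275553), 13 (chr29:51276488-51276547) and 14 (chr29:51276494-51276553) 30 bases each. Capitals mark AATAAA, the common signal for cleavage and polyadenylation near the end of a messenger RNA.
IGF2 probe 2: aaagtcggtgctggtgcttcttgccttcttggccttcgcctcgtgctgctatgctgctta
IGF2 probe 4: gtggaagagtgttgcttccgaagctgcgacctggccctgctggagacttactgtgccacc
IGF2 probes 7, 8 and 9, shared: gaaacgaattggctttttagcaacaccaga
IGF2 probe 12, first 30 bases: ttttttatctgtccctgtcgcttgggttga
IGF2 probe 13, last 30 bases: tttatcgctcgcaatcccAATAAAgcattt
IGF2 probe 14, last 30 bases: gctcgcaatcccAATAAAgcatttaaaatt

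For the other paternally expressed genes, some of the probes that carry the values below are shown. They are DLK1 probe 2 (not placed on the build), DLK1 probes 3 and 4 (chr21:65720775-65720834 and chr21:65721053-65721112, plus strand), PEG3 probe 1 (chr18:64355648-64355707, minus strand), MEST probe 2 (chr4:97496922-97497496, plus strand, a span longer than the probe), NNAT probe 3 (chr13:67052195-67052254, plus strand) and SNRPN probe 2, which lies on an unplaced piece of the build.
DLK1 probe 2: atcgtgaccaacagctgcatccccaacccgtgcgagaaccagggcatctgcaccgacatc
DLK1 probe 3: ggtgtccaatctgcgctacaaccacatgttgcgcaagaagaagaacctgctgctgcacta
DLK1 probe 4, first 30 bases: ctcccctctcctgcctttgcgctgccgtgt
PEG3 probe 1: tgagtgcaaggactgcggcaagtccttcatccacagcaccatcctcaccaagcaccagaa
MEST probe 2: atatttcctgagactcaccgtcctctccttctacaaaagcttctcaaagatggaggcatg
NNAT probe 3, first 30 bases: ctaaaAATAAAaaagtacctcccctgtctc
SNRPN probe 2, last 30 bases: tccattaatattagctAATAAAtgcataga

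AATAAA was searched in all 51280 probes on the strand given and on its complement. On either strand it stood in 6 of the 44 probes of the imprinted genes (13.6%), all on the strand given, and in 11.3% of all probes. On the strand given it stood in 8.35% of all probes. Of the 6 probes 4 were measured on both arrays. Over the whole array 31.3% of the probes with the motif on that strand and 28.7% of those without it were measured on both.

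A probe counts as measured when it is well above background on both arrays, by the flag that the scanner software sets for each spot. Of 51280 probes 28.9% were measured, standing for 12242 genes. On the high-fertile array the 75th percentile of their signals was 141.6 intensity units and on the low-fertile array 176.8. These percentiles were set equal before differences were taken, which adds 0.32 to each raw log2 ratio, so a probe with equal raw signals on both arrays is higher on the high-fertile array after scaling. Of the measured genes 4.43% were called different, and of the measured probes 5.02%. The median difference over all genes was -0.01, with the middle 50% between -0.26 and 0.23. Probes printed as a pair of spots on each array gave differences with an SD of 0.28 between their spots. Differences are therefore read against 0.28 and against the error the scanner software gives for each spot.

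The sperm label was checked on 14 genes of spermatids and sperm, of which 9 were measured. Their median difference was 0.04, and their signals summed to 871 units on the high-fertile array and 939 on the low-fertile one. Sums in this paragraph are of signals before scaling, so their direction can differ from that of the scaled differences. PRM2, AKAP4, SPATA18, HSPA1L and DNAJB1 were well above background on neither array. Of the others PRM1 was called lower, at -1.103, and TNP2 and ACTL7B were called higher, at 1.22 and 1.18, where PRM1 and TNP2 encode proteins that package sperm DNA. Probes for markers of other cell types were also measured. Of the leukocyte markers 6 of 9 were measured, with a median difference of 0.16 and a summed signal of 2261 units on the high-fertile array and 2763 on the low-fertile one. Of the markers of testis somatic cells 7 of 10 were measured, with a median of -0.06 and sums of 915 and 1123. Of the epithelial markers 3 of 6 were measured, with a median of 0.33 and sums of 408 and 416. Of the epididymal markers 2 of 3 and of the erythroid markers 1 of 4 were measured. None of these 5 lists' genes was called, against 4.43% of all measured genes. Measured on both arrays were PTPRC, with 539 units on the high-fertile array and 960 on the low-fertile one, LYZ, with 794 and 789, and CD79A, with 528 and 566, among the leukocyte markers. The same held for KRT8 and KRT19 of epithelium and for STAR, CYP17A1, INSL3 and AMH of the testis. CD3E, CSF1R, EPCAM, CDH1, CYP11A1, HSD3B1, CRISP1 and HBB were well above background on neither array. What part such cells had in the values below was not tested, and in bulk RNA fewer cells of a type and less RNA per cell cannot be told apart.

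Of the 10 imprinted genes 7 were measured, and none was called different, against 4.43% of all measured genes. Of their 44 probes 20 (45.5%) were measured on both arrays against 28.9% of all probes, 4 were well above background on the high-fertile array only, none on the low-fertile array only, and 20 on neither. Over the whole array 4.19% of probes were above background on the high-fertile array only and 3.97% on the low-fertile array only. None of the 20 measured probes differed 2-fold, against 5.02% of all measured probes. Their differences ran from -0.70 to 0.74 with a median of 0.05, and 12 were above and 8 below 0. Over all measured probes the median was -0.01 and 48.4% were above 0.

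**Figure D1:**
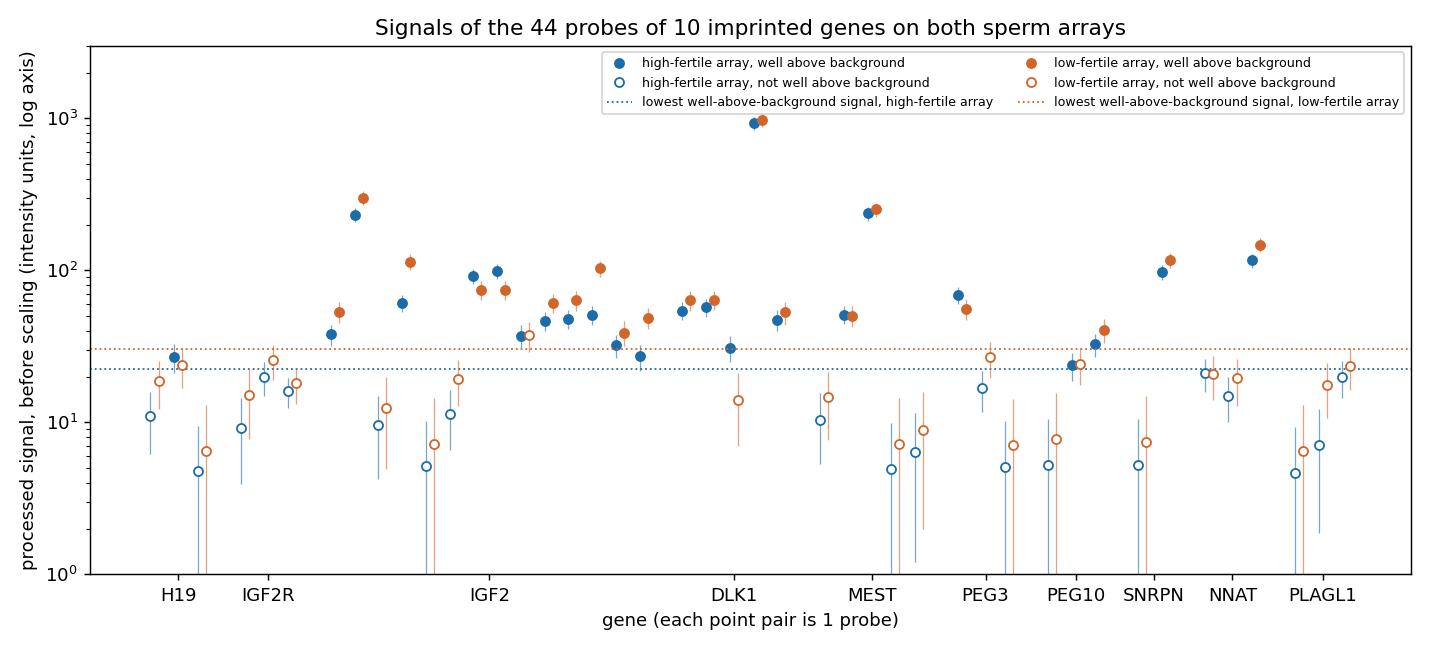
Processed signal of each of the 44 probes before scaling, in intensity units on a log axis, with bars for the scanner software's error of the spot. Filled points are well above background and open points are not. All 6 probes of H19 and IGF2R lie at or below 26.9 units on both arrays, and DLK1 probe 4 is near 929 and 981 units.

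None of the 6 probes of H19 and IGF2R was well above background on both arrays, against 20 of 38 (52.6%) of the paternally expressed genes. Over all probes of the array the share was 28.9%. Most of the 20 came from IGF2, with 10 of 14 probes, some of them overlapping, and from DLK1, with 4 of 5. A difference between the fertility groups therefore has no value on the maternal side, and the comparison of maternally with paternally expressed genes could be made only as a count of probes above background.

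H19 is a non-coding RNA made from the maternal copy of the domain it shares with IGF2. Its probe 1 gave 11.01 units on the high-fertile array and 18.7 on the low-fertile one, and probe 3 gave 4.75 and 6.45. Both were well above background on neither array. Probe 2 gave 26.9 ± 5.69 and 23.9 ± 6.98 units (error of the spot) and was well above background on the high-fertile array only. Its bound was 1.11-fold brighter there, with the spot errors not carried. That bound sets its scaled value against the lowest signal well above background on the low-fertile array, 30.3 units, which is above the probe's own value. Scaling on the spike-in control RNAs in place of the measured probes takes the ratio under 1, to 0.735. Probe 2 also shares a run of at least 16 bases with a probe named for AK5, so its signal has a possible second source. IGF2R encodes the receptor that takes IGF2 into the cell for breakdown. Its probe 1 gave 9.15 and 15.2 units, probe 2 gave 19.95 and 25.7, and probe 3, printed on 2 spots, gave 15.97 and 18.01, in each case high-fertile first. All 3 were well above background on neither array.

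IGF2, the fetal growth factor of the insulin family, had 14 probes, of which 10 were measured, 1 was above background on the high-fertile array only and 3 on neither. The mean difference over the 10 was -0.08 with an SD over probes of 0.47. It was 0.03 when the arrays were set equal at the 75th percentile of all their probes, so the sign of the gene's mean turned with the scaling. Of the 10 probes 3 were above and 7 below 0. Of 53 genes with at least 5 measured probes, 41 had a smaller SD than IGF2, and the median SD was 0.36. Over all measured probes of the array the differences had an SD of 0.49.

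The probes with the widest values on each side were 7 and 8 on the high side and 4, 12 and 14 on the low side. Probe 7 gave 92.1 units on the high-fertile array and 74.6 on the low-fertile one, a difference of 0.62 ± 0.26 (error of the spots). Probe 8 gave 99.0 and 74.2 units, a difference of 0.74 ± 0.26. These were higher on the high-fertile array before scaling as well. They start 18 bases apart and share 42 bases, so they are not separate measurements of the gene. Probe 9, which shares 50 bases with probe 8, gave 37.0 ± 6.38 and 37.5 ± 8.47 units (error of the spot). It was above background on the high-fertile array only, 1.23-fold brighter there after scaling. That ratio is between its own 2 values and is not a lower bound. Spike-in scaling puts the ratio under 1, at 0.820.

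On the low side, probe 4 gave 61.0 units on the high-fertile array and 114 on the low-fertile one, a difference of -0.59 ± 0.25. Probe 12 gave 51.1 and 103 units, a difference of -0.70 ± 0.27. Probe 14 gave 27.1 and 48.8 units, a difference of -0.53 ± 0.37. All 3 were brighter on the low-fertile array. From probe 8 to probe 12 the difference moved by 1.43, with an error of 0.37. These are the highest and the lowest of the measured IGF2 probes. They were picked after the values were seen, which that error does not take into account. Probes 8 and 12 kept their sign under each of the scalings and filters in which they were measured. With scaling on the spike-ins, which moved all genes by -0.59, probe 8 was at 0.15. Probes 4, 12 and 14 passed 2-fold there, at -1.18, -1.29 and -1.12. Of all 12242 measured genes, 1919 were called lower and 36 higher with that scaling.

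The other 5 measured IGF2 probes lay within 0.17 of 0. Probe 2, in the first part of the reference transcript, gave 233 and 301 units, a difference of -0.05 ± 0.21. Probe 1, designed on another transcript, gave 37.9 and 53.4 units, a difference of -0.17 ± 0.32, and shares at least 16 bases with a probe named for P2RY4. Probes 10 and 11, which share 25 bases, gave 46.7 and 61.1 units and 48.0 and 63.5 units, and their differences were -0.07 ± 0.29 and -0.08 ± 0.29. Probe 13 gave 32.2 and 39.0 units, a difference of 0.04 ± 0.37. None of these 5 differed by more than its own error.

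Overlapping probes gave a check on single spots. Probes 13 and 14 share 54 of their 60 bases and both hold the AATAAA shown in capitals above, yet their differences were 0.57 apart. Probes 7 and 8 were 0.11 apart and probes 10 and 11 were 0.02 apart. The 3 remaining IGF2 probes were well above background on neither array: probe 3 gave 9.53 and 12.4 units, probe 5 gave 5.13 and 7.17, and probe 6 gave 11.4 and 19.3. Probe 6 lies between probes 4 and 7 on the reference transcript, so being measured did not follow position along the transcript.

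**Figure D2:**
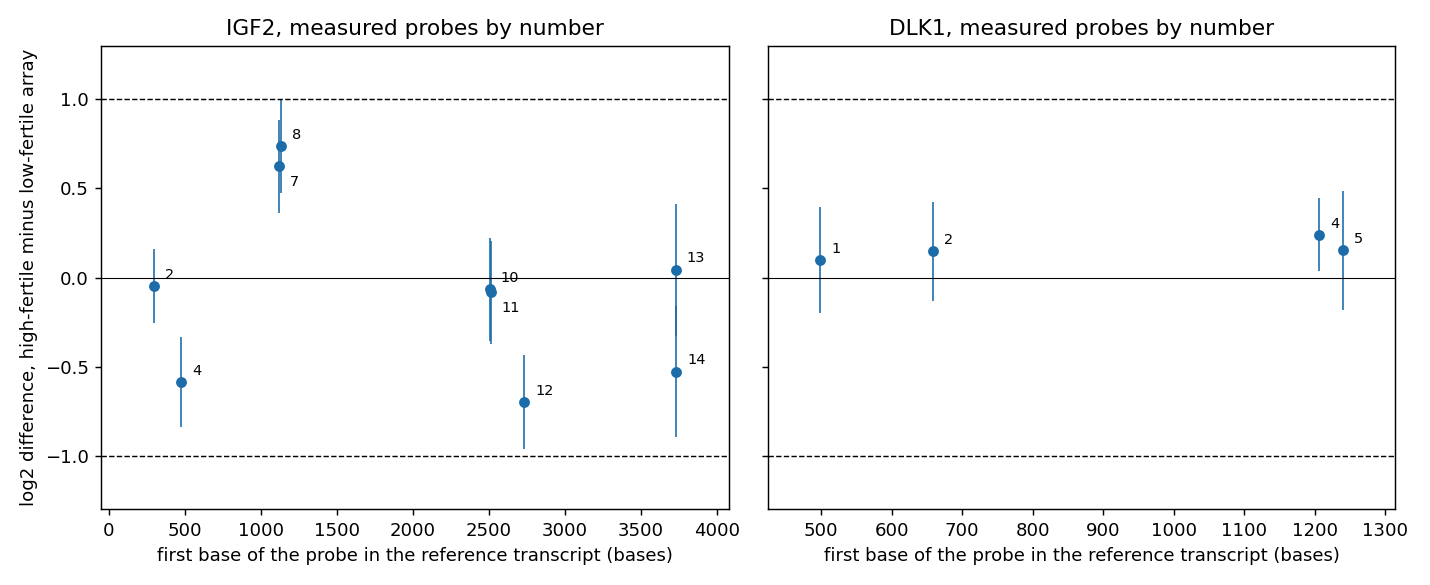
Log2 difference of each measured probe of IGF2 (left) and DLK1 (right) against the first base of the probe in the gene's reference transcript, with the scanner software's error of the difference and dashed lines at 2-fold. Numbers are probe numbers, and IGF2 probe 1 is left out because it was designed on another transcript. IGF2 probes 7 and 8 are at 0.62 and 0.74 and probe 12 is at -0.70, while the 4 DLK1 probes lie between 0.10 and 0.24, all below 0 with spike-in scaling.

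DLK1 encodes a membrane and secreted protein of the Notch ligand family that holds back differentiation, of fat cells among others. Each of its 5 probes was above background on at least 1 array, which held for no other gene of the 10. The 4 measured probes had a mean difference of 0.16 with an SD over probes of 0.06, which lies inside the middle 50% of all genes. Probe 1 gave 54.4 units on the high-fertile array and 63.4 on the low-fertile one, a difference of 0.10 ± 0.30, and shares at least 16 bases with a probe named TC423513. Probe 2 gave 57.0 and 64.3 units, a difference of 0.15 ± 0.28. Probe 4 gave 929 and 981 units, a difference of 0.24 ± 0.20. Probe 5, which shares 26 bases with probe 4, gave 47.2 and 53.0 units, a difference of 0.15 ± 0.33. The 4 probes stood on 1 side of 0 and close together, and with spike-in scaling the gene was at -0.43, still above the median of all genes there.

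DLK1 probe 3 gave 31.0 ± 6.03 units on the high-fertile array and 13.9 ± 7.01 on the low-fertile array, where it was not well above background. Its bound was 1.27-fold brighter on the high-fertile array, with the spot errors not carried. Spike-in scaling takes that bound under 1, to 0.846. The 5 non-control spots around it, taken at any signal, had a median difference of 0.87. The 8 around probe 4 had one of 0.59, so spots beside them leaned the same way. These neighbours were not filtered on background. With the median difference of each block of spots subtracted, DLK1 was at 0.23. The part of position on the array in the signal of probe 3 was not tested.

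MEST, an enzyme of the hydrolase fold family, had 2 of 5 probes measured, and both lay above 0. Probe 2 gave 51.1 units on the high-fertile array and 50.5 on the low-fertile one, a difference of 0.34 ± 0.30. Probe 3 gave 237 and 252 units, a difference of 0.23 ± 0.21, and shares at least 16 bases with a probe named DN532139. The mean was 0.29 with an SD over probes of 0.07, above the middle 50% of all genes by a narrow margin, and it was -0.30 with spike-in scaling. Probes 1, 4 and 5 lay between 4.96 and 10.4 units on the high-fertile array and between 7.19 and 14.6 on the low-fertile one, well above background on neither.

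PEG3, a zinc finger protein made mainly in placenta and brain, had the widest difference of the 7 measured genes, from 1 probe. That probe gave 68.9 units on the high-fertile array and 55.9 on the low-fertile one, a difference of 0.62 ± 0.29, or 1.54-fold. It was at 0.36 with normexp background correction and at 0.03 with spike-in scaling. Its probes 2 and 3, further along the transcript, gave 16.7 and 26.8 units and 5.09 and 7.10 units, and both were well above background on neither array. The value of PEG3 thus rests on 1 spot on each array.

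PEG10, a gene derived from a retrotransposon and needed for the placenta, had 1 of 3 probes measured. Probe 3 gave 32.7 units on the high-fertile array and 40.6 on the low-fertile one, a difference of 0.01 ± 0.37. Probe 2 gave 23.7 and 24.4 units and was above background on the high-fertile array only, too close to the limit for a fold. Probe 1 was well above background on neither array, with 5.27 and 7.78 units.

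SNRPN encodes a protein of the splicing machinery and had 1 of 2 probes measured. Probe 2, which holds the AATAAA shown above, gave 96.9 units on the high-fertile array and 117 on the low-fertile one, a difference of 0.05 ± 0.23. Probe 1 was well above background on neither array, with 5.25 and 7.39 units. NNAT, a small membrane protein best known from the developing brain, had 1 of 3 probes measured. Probe 3 gave 116 and 148 units, a difference of -0.02 ± 0.22, and probes 1 and 2 were well above background on neither array. The differences of PEG10, SNRPN and NNAT were smaller than their errors, and the sign of each turned under at least 1 other scaling.

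PLAGL1, a zinc finger transcription factor that restrains cell division, was not measured. Its probe 1 gave 4.62 units on the high-fertile array and 6.46 on the low-fertile one, probe 2 gave 7.06 and 17.7, and probe 3 gave 19.8 and 23.6. None was well above background on either array, so PLAGL1 has no difference here, like IGF2R.

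**Figure D3:**
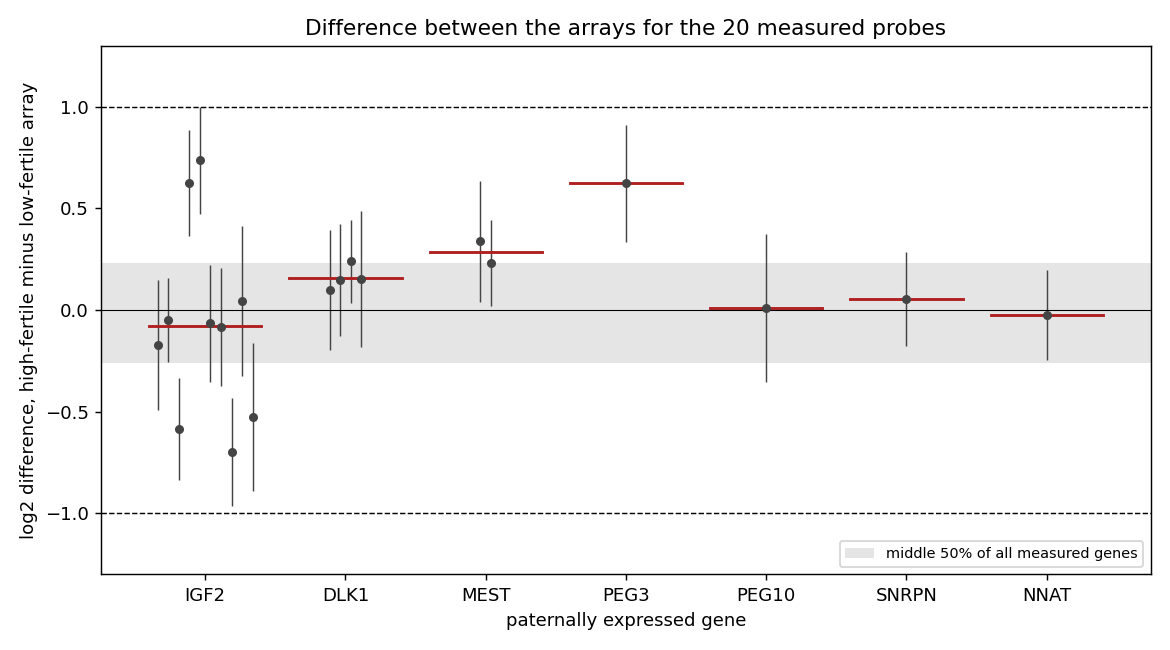
Log2 difference of each of the 20 measured probes, by gene, with the scanner software's error of the difference. Red bars are gene means, dashed lines mark 2-fold and the grey band is the middle 50% of all measured genes. The points run from -0.70 to 0.74, both ends in IGF2, and with spike-in scaling 17 of the 20 were below 0.

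Over the 7 measured genes the median difference was 0.05, with 5 above and 2 below 0, against -0.01 for all genes. With spike-in scaling the median was -0.53, against a shift of -0.59 in all genes. Of the 20 measured probes 9 differed by more than their own error, 5 by more than 2 times that error, and 7 (35.0%) by more than the spread of 0.28 between paired spots, against 46.7% of all measured probes. Of these 7 probes 5 belong to IGF2. The 20 probes had a median GC content of 45%, as had the 24 that were not measured. No spot was saturated. A run of at least 16 bases in common with a probe of another gene name was found for 8 of the 44 probes (18.2%) and for 17.6% of all probes.

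The genes beside the 10 on the chromosome, taken from the order of genes in RefSeq's ARS-UCD2.0 annotation, gave no 2-fold difference when scaled on the measured probes. INS, the insulin gene before IGF2, was at 0.35 from 1 measured probe of 3, and at -0.24 with spike-in scaling. MRPL23, beyond H19, was at 0.10 with an SD of 0.13 over 2 probes. MEST lies between CEP41, at -0.12, and COPG2, at -0.57, each from 1 measured probe. These gave 35.3 and 34.5 units on the high-fertile array and 47.8 and 63.7 on the low-fertile one. Both lay below 0 and MEST above, but the CEP41 value was smaller than the spread of 0.28 between paired spots. BLCAP and CTNNBL1 beside NNAT were at -0.06 and 0.03, each from 1 measured probe, near NNAT itself. ZC2HC1B and SF3B5 beside PLAGL1 were both at -0.45, also from 1 measured probe each. MEG3, the maternally expressed RNA beside DLK1, was at -0.20 from 1 measured probe, 96.4 units on the high-fertile array and 138 on the low-fertile one. Its other probe gave 39.2 and 26.7 units, well above background on the high-fertile array only, and with no filter on dim probes MEG3 was at 0.34. SGCE, PPP1R9A, NDN, SNURF and MAS1, next to PEG10, SNRPN and IGF2R, were well above background on neither array. Scaling on the 75th percentile of all probes adds 0.11 to each of these values, which puts BLCAP above 0. Spike-in scaling takes 0.59 off each, which puts INS, MRPL23 and CTNNBL1 below 0. It takes COPG2, ZC2HC1B and SF3B5 past 2-fold, to -1.16, -1.04 and -1.04. Of all 12242 measured genes, 1919 were called lower and 36 higher with that scaling.

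A further 44 genes known to be imprinted in mouse, human or cattle were listed, of which 32 were on the array. Of these 13 were measured, 2 were above background on 1 array and 17 on neither. None was called, against 4.43% of all measured genes. The median was 0.07, with 7 above and 6 below 0. Of the maternally expressed ones 9 of 18 were measured (50%), and of the paternally expressed ones 4 of 14 (28.6%). Counted by gene in the same way, 0 of 2 maternally and 7 of 8 paternally expressed genes of the 10 were measured. Over the whole array, with names brought to RefSeq symbols where possible, 12242 of 31910 genes were measured. The counts by allele are small, and no test was made of them.

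Among the maternally expressed genes the median was 0.20. CDKN1C, an inhibitor of the cell cycle, was at 0.78 from its 1 probe, with 231 units on the high-fertile array and 168 on the low-fertile one. PHLDA2, which restrains growth of the placenta, was at 0.42, and SLC22A18, a transporter of the same domain, at 0.37. CDKN1C stayed above 0 under each alternative, at 0.19 with spike-in scaling, where PHLDA2 and SLC22A18 were at -0.17 and -0.22. GNAS, the stimulatory G protein subunit, is named after its values were seen: its 3 measured probes were at -0.69, 0.63 and 0.66, an SD of 0.77. Among the paternally expressed genes the median was -0.05, with DIRAS3, a small GTPase, at -0.09 and L3MBTL1, a chromatin reader, at -0.13, both of them above 0 with normexp.

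Enzymes and factors that set or keep imprints were taken as a list of 20 genes, of which 18 were on the array and 9 were measured. Of these 7 were above and 2 below 0, with a median of 0.53, and none was called, against 4.43% of all measured genes. DNMT3L, the partner of the methyltransferases that write imprints in germ cells, gave 608 units on the high-fertile array and 429 on the low-fertile one, a difference of 0.82 from 1 probe. DPPA3, which guards methylation in the early embryo, gave 293 and 210 units, a difference of 0.80 from 1 measured probe of 2. UHRF1, which brings DNMT1 to newly copied DNA, was at 0.75 from 1 measured probe of 4. TRIM28, the co-repressor at imprinted sites, named after its values were seen, was at 0.69 with an SD of 0.07 over 2 probes. These 4 stayed above 0 under each alternative in which they were measured and were between 0.10 and 0.23 with spike-in scaling.

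DNMT3A, the methyltransferase itself, is also named after its values were seen, and its probes disagreed. Its mean was 0.53 with an SD of 1.096, because 1 probe gave 561 and 283 units, a difference of 1.31, and the other gave 24.4 and 36.0 units, a difference of -0.24. With the brightest probe in place of the mean DNMT3A was called. CTCF, the insulator protein of the IGF2 and H19 domain, was at -0.31 from 1 measured probe of 4, and DNMT1 at -0.15. CTCFL, the germ cell relative of CTCF, was well above background on neither array.

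**Figure D4:**
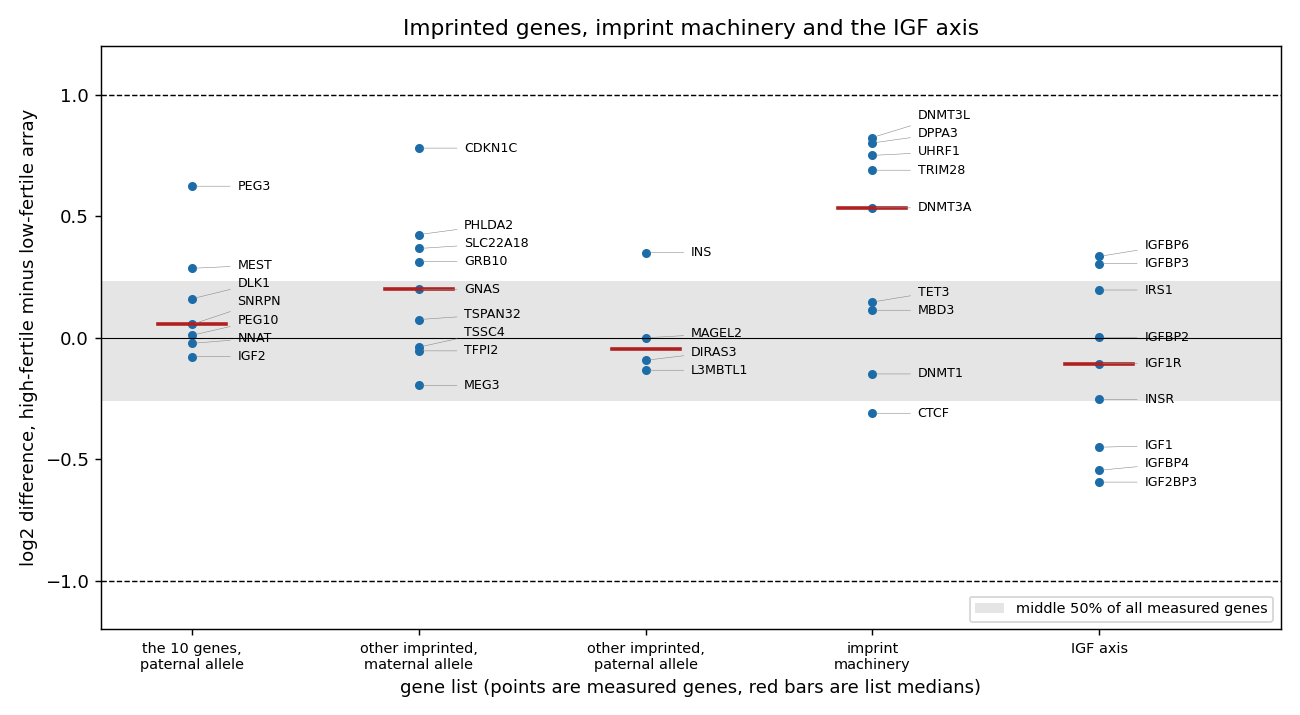
Log2 difference of every measured gene of the 10, of the other imprinted genes by expressed allele, of the imprint machinery and of the IGF axis. Red bars are list medians, the grey band is the middle 50% of all measured genes and dashed lines mark 2-fold. No point passes 2-fold, and the machinery list has its median at 0.53, and spike-in scaling moves every point down by 0.59.

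The IGF axis, the receptors, binding proteins and RNA-binding proteins through which IGF2 acts, had 15 of 16 listed genes on the array and 9 measured. Of these 4 were above and 5 below 0, with a median of -0.11, and none was called, against 4.43% of all measured genes. IGF2BP3, which binds IGF2 messenger RNA, was at -0.59 with an SD of 0.19 over 2 measured probes of 4. Another of its probes gave 22.6 units on the high-fertile array and 9.41 on the low-fertile one, above background on the high-fertile array only. With no filter on dim probes IGF2BP3 was at -0.015. IGFBP4, a secreted binding protein, gave 13127 units on the high-fertile array and 23920 on the low-fertile one, a difference of -0.55 from 1 measured probe of 2, and its other probe, with 4.90 and 6.55 units, was well above background on neither array. IGF1, the other ligand, was at -0.45 with an SD of 0.02 over 2 measured probes of 3. These gave 27.5 and 27.4 units on the high-fertile array, near the limit of 22.6, and 46.5 and 47.2 on the low-fertile one. Its highest value under an alternative was -0.03. These 3 were below 0 under each alternative. They passed 2-fold with spike-in scaling, under which 1919 of all 12242 measured genes were called lower and 36 higher. On the other side IGFBP6 was at 0.33, IGFBP3 at 0.30 with an SD of 0.18 over 3 probes, and IRS1 at 0.20, all below 0 with spike-in scaling, and IRS1 also with its brightest probe.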

How the data were processed

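Total RNA of sperm was measured on 2 arrays of 1 slide, 1 per group, with groups from the fertility entry of the labels. The deposited scanner tables hold spot intensity on a linear scale, and per the file headers the 1-colour software, Agilent Feature Extraction 11.5.1.1, subtracted background and spatial trend. The deposited series matrix holds log2 values, equal to the log2 processed signal plus -5.12 or -5.55, within 0.01 for 98.6% of probes. Its column medians were -1.43 and -1.37.

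Control and outlier-flagged spots were left out, log2 processed signals were averaged per probe, and each array's 75th percentile over the measured probes was subtracted. A probe was above background when at least 50% of its spots were. A gene was the mean over its measured probes. The scanner software's spot errors were carried to differences but not to bounds. A bound set the bright value against the higher of the dim value and the lowest signal of a probe with every spot above background, 22.6 and 30.3 units. The number of arrays limits precision.

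All probes of the 10 genes are named, and of each further list up to 3 genes per direction with the widest difference, plus genes called. Genes and lists were chosen with earlier results of these data known. The calculation was tested on simulated data. The 14 alternatives covered scaling, normexp (offset 50, limma 3.58.1, R 4.3.3), filters, probe choice, position and threshold, and the rule that every spot be above background was added after seeing the data.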

Additional observations from a re-analysis of the deposited data

How the results depend on the processing

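None of the 10 genes and none of the other imprinted genes was called under any of the 14 alternatives. Over all genes 542 were called, with 1955 under spike-in scaling, 122 with normexp, 2552 with no filter on dim probes, 168 with a stricter filter and 36 at 4-fold. The median of the paternally expressed genes was 0.05, at -0.53 with spike-in scaling and otherwise between -0.02 (blocks of spots centred) and 0.17 (series matrix values). The median of the other imprinted genes was 0.07, at -0.52 with spike-in scaling and 0.37 with the stricter filter. Spike-in scaling used 7 spike-in probes and moved the median of all genes by -0.59; no filter moved it by -0.12, and the series matrix values and the nearly equal scaling on the 75th percentile of all probes by 0.11 each. Of all genes called 43.4% were higher, and 59.6%, 59.0%, 54.1% and 1.84% with the 75th percentile of all probes, the matrix values, the median of detected probes and the spike-ins. A difference of the maternally from the paternally expressed genes had a value only with no filter, -0.07, from probes largely not well above background. There DLK1 probe 3 was at 1.47 and PLAGL1 probe 2 at -1.004. In the machinery list DNMT3A was called, as higher, with the stricter filter or the brightest probe. With no filter the 1 gene called there was another, TET2, as lower, from probes well above background on neither array. In the IGF axis 3 genes were called with spike-in scaling, under which 1919 of all 12242 measured genes were called lower and 36 higher. No paired analysis was possible because each group has 1 array. Signal over background limits the set: 20 of 44 probes were well above background on neither array.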
